A study of Mus musculus with 9 samples.

Results

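The regions described here are the stretches of the mouse genome where Dppa4 peaks were called reproducibly in all 3 cell lines of the study. For each line, peaks of its 2 chromatin immunoprecipitation (ChIP-seq) lists were kept where they shared at least 1 bp with a peak of the other list, and overlapping peaks were joined. The members were thus chosen by the peak calls themselves, which depend on the scores in every list. The regions of the lines were then merged, and a merged region counted as common where it held at least 1 reproducible region of every line. There were 7042 common regions among 45616 merged regions, or 15.4%. The first line, 3T3, is a fibroblast line made to express Dppa4 ectopically and grown in serum-containing medium. P19 is an embryonal carcinoma line grown in the same kind of medium. E14 cells are embryonic stem cells, kept on gelatin without feeders in 2i medium with serum. Every line had 2 libraries precipitated with an antibody to DPPA4 and 1 input library, and the inputs were not analysed here. No precipitation from cells without Dppa4 was analysed here, and the labels say neither whether the 3T3 cells were 1 clone nor whether replicate libraries had separate cultures behind them.

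DPPA4, developmental pluripotency associated 4, is a small nuclear protein with a SAP domain, a fold that contacts DNA. It works together with its close relative DPPA2 and is normally made in the early embryo, in germ cells and in pluripotent cells. In embryonic stem cells the pair is known to sit on chromatin at promoters of developmental genes and of genes active at the onset of embryonic transcription. Fibroblasts do not normally make it, so in 3T3 cells the protein met chromatin of a differentiated cell. A common region is therefore a place where a DPPA4 peak was called in stem cells, in carcinoma cells and in fibroblasts. The peak coordinates are those of the mm9 assembly, and no gene was assigned to a region.

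The common regions took up most of the 3T3 binding that was called in both libraries, and a small share of that in the other lines. They held 7182 of the 11178 reproducible 3T3 regions (64.3%), 7508 of the 32963 P19 regions (22.8%) and 7336 of the 37337 E14 regions (19.6%). Counted as single peaks, 57.9% and 42.0% of the peaks of the 3T3 lists lay in a common region, against 21.2% and 16.0% in P19 and 14.3% and 17.4% in E14. The strongest peaks showed the same split. Of the best-scoring 10% of each list, 93.1% and 92.1% of the 3T3 peaks lay in common regions. Of the best P19 peaks 31.3% and 28.7% did so, and of the best E14 peaks 33.0% and 31.7%. A peak in the best 10% of a 3T3 list was thus nearly always at a common region. Most peaks in the best 10% of the P19 and E14 lists were not. In numbers, 1440 of 1546 and 1616 of 1754 best 3T3 peaks lay in common regions. In P19 they were 1253 of 4001 and 1469 of 5119, and in E14 2036 of 6169 and 1379 of 4344. The best 10% thus held many more peaks in P19 and E14, and equal numbers of peaks were not compared. The 3T3 lists were shorter, with 15462 and 17540 peaks, against 40011 and 51196 in P19 and 61693 and 43443 in E14, and list length limits these shares. Read depth is unknown because the lists hold no read counts, so an absent peak does not show that DPPA4 was absent.

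Most common regions joined a single region of each line. Of the 7042, 6413 (91.1%) were made of exactly 1 reproducible region of each line, and 4224 (59.98%) had exactly 1 peak in each of the 6 libraries. In 7008 (99.5%), the regions of all 3 pairs of lines overlapped each other directly and were not merely joined through the other line. At least 2 separate regions of the same line lay in 116 common regions for 3T3, in 418 for P19 and in 278 for E14. The merged regions had a median width of 1328 bp, with quartiles at 1082 and 1679 bp. The core, meaning the bases covered by a peak in all 6 libraries, had a median of 420 bp and quartiles at 289 and 604 bp. It made up 33.3% of the merged width at the median. In 192 common regions (2.73%) no base was covered in all 6 libraries. Summed over the genome the common regions spanned 10.5 Mb and their cores 3.47 Mb.

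Peaks in common regions were wider than the other peaks of the same list in each of the 6 libraries. In 3T3 the median widths were 486 and 1105 bp in common regions, against 329 and 747 bp elsewhere. In P19 they were 580 and 782 bp in common regions and 425 and 507 bp elsewhere, and in E14 657 and 1034 bp in common regions and 385 and 732 bp elsewhere. Wide peaks overlap other lists more easily, so width is bound up with the choice of the regions and was not tested. Width also followed the score. Over the common regions the Spearman rank correlation between a library's score and the width of its own best peak was 0.88 and 0.71 in 3T3, 0.87 and 0.79 in P19, and 0.80 and 0.63 in E14. These are descriptions over 7042 regions of shared libraries.

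The score is the number that the authors' peak caller gave each peak, on a scale the files do not name. The lowest scores were near 50, and many peaks shared the value 3100. In the P19 lists 1298 and 1995 peaks had exactly this score and 101 and 113 a higher one, up to 3233. Each score was turned into its percentile in its own list, the percentage of that list's peaks that scored no higher, and a region took the percentile of its best peak. Common regions sat in the upper part of every list but reached down to its floor. In 3T3 the median percentile was 69.98 and 75.4 for common regions, against 42.2 and 40.8 for the other merged regions with a peak in that library. In P19 it was 67.4 and 75.5 for common regions and 53.3 and 58.0 for the others, and in E14 81.0 and 75.6 for common regions and 62.6 and 49.3 for the others. Requiring a peak in every library favours strong peaks, so the difference belongs to the choice of the regions and was not tested.

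A common region was not always a strong one. In 3T3, 1406 and 1606 common regions (19.97% and 22.8%) had a peak at the 90th percentile or above, where all merged regions with a peak in these libraries gave 12.6% and 11.8%. In P19 there were 1226 and 1454 such regions, or 17.4% and 20.6%, where all regions gave 11.9% and 13.4%. In E14 there were 2007 and 1365, or 28.5% and 19.4%, where all regions gave 15.2% and 11.3%. These counts restate the enrichment for strong peaks that the rule brings with it. At the other end, 298 and 158 common regions lay below the 10th percentile in 3T3, 175 and 60 in P19, and 64 and 57 in E14. The score of 3100 or more was reached by 1 and 16 common regions in 3T3, 575 and 747 in P19, and 93 and 75 in E14. No common region reached it in all 6 libraries, and 2 reached it in 5.

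**Figure D1:**
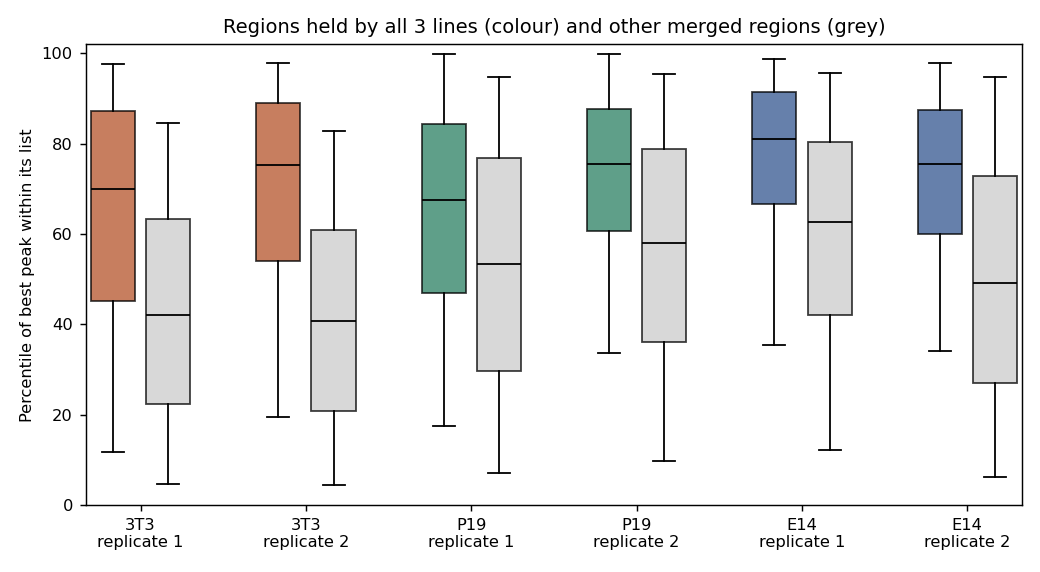
Percentile of the best peak of each region within its library's list (y axis, 100 for the strongest peak), for the regions held by all 3 lines (coloured boxes) and for the other merged regions with a peak in that library (grey boxes), in 2 libraries of 3T3, P19 and E14. Boxes span the quartiles with the median as a line and whiskers run from the 5th to the 95th percentile of regions; the coloured medians lie between 67.4 and 81.0 and the grey ones between 40.8 and 62.6.

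The order of strength in 3T3 was unlike that in the other lines, while P19 and E14 resembled each other more. Within a line the order was stable. The best-peak percentile of a common region differed between its 2 libraries by a median of 7.52 points in 3T3, 6.63 in P19 and 7.72 in E14. The mean percentile in 3T3 minus the mean of P19 and E14 had quartiles at -23.2 and 16.8 points, and its outer deciles were -54.4 and 29.2. The mean percentile in P19 minus that in E14 had quartiles at -16.0 and 3.63 points. In 54.8% of the common regions the 3T3 percentile was above the mean of the other lines. This share lay near an even split and passed to the other side of it without either 3T3 library, at 44.0% without replicate 1 and 47.1% without replicate 2, so no direction is read from it.

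The relation between fibroblast and carcinoma ranks was not a straight line but a hump. The common regions were sorted by their mean percentile in P19 and cut into 4 quartile groups of 1760 or 1761 regions. The median 3T3 percentile was 69.6 in the lowest P19 group, 78.3 in the next, 81.2 in the third and 50.6 in the highest. From the third to the highest group the median in 3T3 dropped by 30.6 points. For single libraries this difference ranged from -28.6 to -27.6 points over the 4 combinations of a P19 and a 3T3 library. Sorted by E14 instead, the median 3T3 percentile was 64.3, 73.7, 79.2 and 69.9 from the lowest to the highest group. Here the difference was -3.43 and -3.20 points for E14 replicate 1 and -14.4 and -13.8 points for E14 replicate 2, against the 2 libraries of 3T3. The deciles show where it begins. Median 3T3 percentiles stayed at or above 73.5 from the third to the 8th P19 decile, then were 52.7 in the 9th and 40.6 in the highest. For E14 they were 81.0 in the 9th decile and 46.2 in the highest. Below the 25th percentile in both 3T3 libraries stood 8.81% and 8.79% of the regions in the upper 2 P19 deciles, and 1.42% to 3.41% in each of the others. For E14 the corresponding shares were 6.25% in the 9th decile and 7.8% in the highest, and lower in each of the others. The strongest carcinoma sites and the strongest stem cell sites among the common regions were thus the ones that most often ranked low in fibroblasts.

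**Figure D2:**
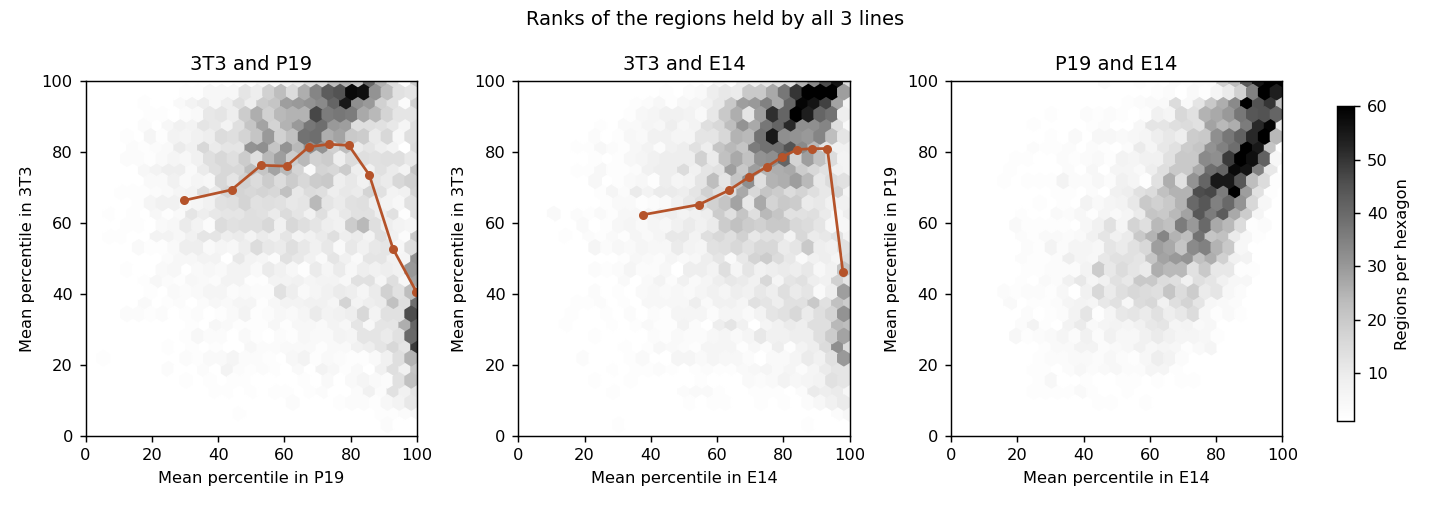
Mean percentile over the 2 libraries of a line for the 7042 common regions, for 3T3 against P19 (left), 3T3 against E14 (middle) and P19 against E14 (right); grey shows the number of regions per hexagon, and the points joined by a line are medians in 3T3 over deciles of the x axis. The line in the left panel reaches 82.2 in the 6th decile and 40.6 in the highest, and that in the middle panel ends at 46.2, while in the right panel the P19 percentiles rise with those of E14.

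Seen from the fibroblasts, the group of weakest common regions ranked highest in P19. In E14 it ranked below the group of strongest 3T3 regions but above the middle groups. Sorted by 3T3, the median P19 percentile was 84.4 in the lowest 3T3 group, 63.0 and 62.7 in the middle groups and 73.6 in the highest. The median E14 percentile was 81.3, 70.1, 74.7 and 83.9 in the same order. Both ends of the 3T3 order were thus higher in P19 and E14 than its middle. Every common region, weak or strong in 3T3, needed a peak in each P19 and E14 library. Why both ends were higher was not tested. On either side of the hump the rank correlations had opposite signs. Among the 4646 common regions below the 80th percentile in P19, the Spearman correlation between 3T3 and P19 libraries ranged from 0.17 to 0.22. Among the 2396 at or above it, the correlation ranged from -0.34 to -0.33. For E14 the range was 0.145 to 0.22 below that limit (3927 regions). Above it (3115 regions) the values were -0.06 and -0.07 for E14 replicate 1. For E14 replicate 2 they were -0.22 and -0.26, so the libraries differed in how negative they were. The limit was chosen after the values were seen, and the regions share their libraries, so the values describe the shape of the plot of ranks. Between P19 and E14 libraries the correlation over all common regions was 0.59 to 0.70. It was -0.15 to -0.08 between 3T3 and P19 libraries and 0.06 to 0.10 between 3T3 and E14 libraries. Among the 6260 common regions below a score of 3100 in every library, it was 0.49 to 0.61 between P19 and E14. For 3T3 it was there -0.01 to 0.05 with P19 and 0.22 to 0.26 with E14.

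The size of the hump depended on the best-scoring regions and on the lists' length. The difference of -30.6 points between the upper P19 groups was -15.5 once the 782 common regions with a score of 3100 or more in some library were set aside. It was -7.43 with the best-scoring 50% of each list and -20.2 with all lists cut to 15462 peaks. Peak width was compared only by its overall correlation, which does not show a hump. The Spearman correlation of best-peak widths over the common regions was 0.12 to 0.27 between 3T3 and P19 libraries, 0.24 to 0.43 between 3T3 and E14 libraries and 0.55 to 0.65 between P19 and E14 libraries. Within lines it was 0.60 in 3T3, 0.75 in P19 and 0.66 in E14.

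Kinds of common regions were set by cut-offs on where they ranked high or low, and most common regions fell into none of them. At the 75th percentile or above in all 6 libraries stood 737 common regions (10.5%), where all merged regions with a peak in every library gave 10.3%. At or above it in the P19 and E14 libraries and below the 50th percentile in both 3T3 libraries stood 656 (9.32%, background 9.41%). The opposite kind, high in both 3T3 libraries and low in the P19 and E14 libraries, had 38 members (0.54%, background 0.546%). Low in all 6 libraries were 29 (0.41%, background 0.448%). There were 49 regions high in P19 and low in E14 (0.696%, background 0.7%), and 37 low in P19 and high in E14 (0.525%, background 0.546%). The backgrounds are near the counts because 7042 of the 7140 regions with a peak in every library are themselves common regions. Ranks taken among the common regions alone place every library on the same regions, but which regions are common still depends on list length. High in all libraries were then 133, and low in all were 917. High in P19 and E14 but low in 3T3 were 608, and 199 were of the opposite kind. On that scale 155 were high in P19 and low in E14, and 29 low in P19 and high in E14. The sizes of these kinds and their order thus depend on the scale of ranking.

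The kinds differed in shape and place as well as in rank. Regions high in P19 and E14 but low in 3T3 had a median core of 299 bp. The core's share of the merged width had a median of 23.5% there. For regions high in all 6 libraries these medians were 893 bp and 53.7%. The regions low in 3T3 had narrow best 3T3 peaks, with medians of 307 and 762.5 bp, against 949 and 1494 bp for the regions high everywhere. Their P19 peaks were of similar width, with 1004 and 1134 bp against 1025 and 1246 bp. Peak width follows the score in each list, so it is no independent measure. Position on the genome was not used to form the kinds. The median gap to the nearest other merged region was 20140 bp for the regions low in 3T3 and 10482 bp for those high in all libraries, beside 11427.5 bp for all common regions. On the X chromosome lay 30 of the 656 regions low in 3T3 (4.57%), 1 of the 737 high in all libraries (0.136%) and 67 of all common regions (0.951%). Neighbouring regions are not independent, and these differences were not tested.

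Single regions show how far the lines could part at a shared site. The common region where 3T3 fell furthest below the others lay on chromosome 18 from 43162213 to 43163855. It scored 50.5 and 50.4 in 3T3, at the floor of the lists, 3100 and 3100 in P19, and 1635 and 1457 in E14. Next came regions on chromosome 4 (21577278 to 21579085) and chromosome 13 (36944574 to 36945801). The first of these scored 54.2 and 51.0 in 3T3, 3100 and 3100 in P19, and 2422 and 2005 in E14. The other scored 50.8 and 56.4 in 3T3, 2989 and 3100 in P19, and 2264 and 1812 in E14. In each, the 3T3 percentiles were at most 10.0 and those of the other lines at least 96.2. The cores measured 130, 138 and 283 bp. On chromosomes 18 and 4 the peaks of the 3T3 libraries overlapped each other only in part, and on chromosome 13 the core was as long as the peak of 3T3 replicate 1.

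The opposite extremes were milder. The region where 3T3 stood furthest above the others lay on chromosome 4 from 88408683 to 88410078. It scored 324 and 501 in 3T3, 52.1 and 58.0 in P19, and 62.2 and 81.3 in E14. Its 3T3 mean percentile was 85.4, against 7.56 in P19 and 24.4 in E14. Others of this kind were found on chromosome 14 (22667634 to 22668392) and chromosome 15 (32174471 to 32176248), with 3T3 mean percentiles of 76.4 and 81.5. The P19 means there were 17.4 and 14.1, and the E14 means 7.17 and 26.3. No base of the chromosome 15 region was covered in all 6 libraries. All of them lay below the 90th percentile in both 3T3 libraries.

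P19 and E14 also parted at a few common regions. P19 stood furthest above E14 in a region of chromosome 11 (59021492 to 59023185), which scored 396 and 684 in P19, against 55.7 and 61.6 in E14. The 3T3 scores there were 155 and 198. Next came regions of chromosome 13 (44964800 to 44965600) and chromosome 2 (51789981 to 51790934), with P19 mean percentiles of 86.0 and 82.6 against 22.7 and 21.9 in E14. P19 stood furthest below E14 in a region of chromosome 5 (3613423 to 3614710), which scored 57.0 and 50.6 in P19, against 560 and 398 in E14. The 3T3 scores there were 559 and 468. The others were on chromosome 2 (163483948 to 163484676) and chromosome 7 (25861796 to 25863039), with P19 mean percentiles of 13.3 and 16.3 against 75.5 and 73.2 in E14. All named differences were limited to the 3899 placed common regions whose libraries differed by under 20 points within every line.

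The regions at the top of all lists were broad. The leading ones by mean percentile lay on chromosome 12 (114013609 to 114023301), chromosome 1 (172998051 to 173005372) and chromosome 15 (76001850 to 76014545). They were 9693, 7322 and 12696 bp wide, with cores of 8982, 3764 and 4645 bp. The longest unbroken core of any placed region was 5903 bp, on chromosome 17 from 39979769 to 39986017, in a region only 6249 bp wide. It scored 3100 in 3T3 and in P19, and 1912 and 3100 in E14, and had a single peak in each library. With the chromosome 12 region above, it is 1 of the 2 regions that reached 3100 in 5 libraries. The next longest cores measured 4646 bp on chromosome 18 (3113154 to 3120782) and 4058 bp on chromosome 15 (91736644 to 91741099). This chromosome 15 region was at 3100 in all P19 and E14 libraries but scored 543 and 294 in 3T3. Whether the signal at these broad regions depended on Dppa4 was not tested, because neither inputs nor cells without Dppa4 were analysed here.

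The widest common region stood far apart from all others. It lay on chromosome 8 from 126060946 to 126148634 and spanned 87689 bp, of which 47080 bp (53.7%) were covered in all 6 libraries. Within it were 74 and 23 peaks in 3T3, 17 and 9 in P19, and 59 and 14 in E14. P19 peaks covered 99.2% and 99.3% of it, E14 peaks 89.3% and 98.9%, and 3T3 peaks 59.1% and 96.0%. Peaks followed each other at a median spacing of 988.5 bp in 3T3 replicate 1 and 1449 bp in E14 replicate 1, the libraries that split it most. The longest unbroken core in it was 1481 bp, since a gap in any list breaks the core. Outside 3T3 replicate 1 and E14 replicate 1, 9 to 23 peaks per library covered 96.0% to 99.3% of it.

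Among pairs of lines, the peaks of P19 and E14 lay closest to each other within the common regions. Common regions are chosen by overlap, which itself limits how far apart the peaks can lie, so the distances are a description. The distance between the midpoints of the best peaks of 2 libraries was taken in each common region. Its median was 98.5 bp between the 3T3 libraries, 58.5 bp between the P19 libraries and 72.0 bp between the E14 libraries. Between lines the median averaged 94.9 ± 6.16 bp for 3T3 with P19, 94.1 ± 5.90 bp for 3T3 with E14 and 69.8 ± 9.63 bp for P19 with E14 (SD over 4 library pairs that share libraries). The 4 pairs of P19 with E14 ranged from 61.25 to 82.0 bp and the 8 pairs with 3T3 from 87.5 to 102.25 bp, so the ranges did not meet. The distance between the 3T3 libraries lay within the range of the pairs of 3T3 with another line. Midpoints lay within 100 bp of each other in 49.3% to 54.1% of the common regions for pairs of 3T3 with another line, and in 57.6% to 66.9% for P19 with E14. They were over 500 bp apart in 4.05% to 7.21% and in 3.22% to 4.20%.

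Within a line the rule asks the peaks of the libraries to overlap each other, while those of different lines need only fall in the same merged region. Pairs of the same line averaged 76.3 bp and the 12 pairs of different lines 86.3 bp, and this difference was not tested because the rule favours it. In the 4224 common regions with 1 peak in each library, distances were shorter throughout, with means of 71.25 bp for 3T3 with P19, 73.9 bp for 3T3 with E14 and 54.6 bp for P19 with E14. The order of the pairs of lines was the same. Along the 4 quartile groups by 3T3 percentile, from the lowest to the highest, the distance of 3T3 with P19 was 96.5, 94.1, 91.1 and 102.9 bp and that of 3T3 with E14 101.75, 96.5, 88.75 and 93.0 bp, with no steady trend in either. That of P19 with E14 was 57.1, 71.1, 72.8 and 81.6 bp.

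**Figure D3:**
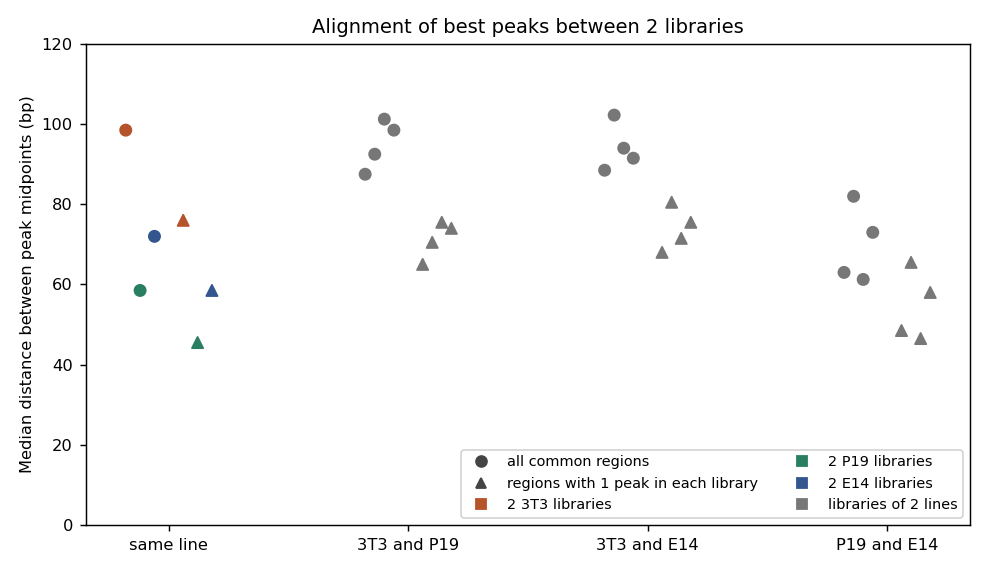
Median distance in bp between the midpoints of the best peaks of 2 libraries (y axis) for library pairs of the same line and of 2 lines; circles use all 7042 common regions and triangles the 4224 with 1 peak in each library. Circles of P19 with E14 lie between 61.25 and 82.0 bp, below all circles of pairs with 3T3, which start at 87.5 bp, and the circle of the 3T3 libraries is at 98.5 bp.

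Common regions were spread over the genome much as the merged regions were, with marked exceptions. On the autosomes they made up 15.7% of the merged regions, from 10.6% on chromosome 14 (Wilson 95% interval 9.17 to 12.2) to 18.9% on chromosome 19 (16.9 to 21.1). On the X chromosome they made up 4.83% (3.82 to 6.09), or 67 of 1386. These intervals cover counting error only and treat regions as independent. The X chromosome was short of called 3T3 regions altogether, since 11.4% of its merged regions were held by 3T3, against 24.6% on the autosomes. Of the X regions held by 3T3, 42.4% were common, against 64.0% on the autosomes. Of the X regions held by P19 and E14, 7.50% were common, against 28.5% on the autosomes. The X chromosome took 1.42% and 2.33% of the 3T3 lists, 2.92% and 2.78% of the P19 lists and 2.61% and 2.99% of the E14 lists. On chromosome 14 the shares were 57.0% of the 3T3 regions and 19.9% of the regions of P19 and E14. It took 2.72% and 2.91% of the 3T3 lists, 3.14% and 3.13% of the P19 lists and 3.47% and 3.55% of the E14 lists.

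The highest share was on contigs that mm9 assigns to no chromosome. There 53 of 94 merged regions (56.4%, 46.3 to 66.0) were common, and of the 57 held by 3T3, 93.0% were. These contigs took 0.595% and 0.490% of the 3T3 lists, 0.297% and 0.197% of the P19 lists and 0.243% and 0.207% of the E14 lists. With no input analysed, it was not tested whether the peaks on these contigs depended on Dppa4. The contigs of the Y chromosome went the other way, with 3 common regions among 162 (1.85%, 0.632 to 5.30), of which 4 were held by 3T3.

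**Figure D4:**
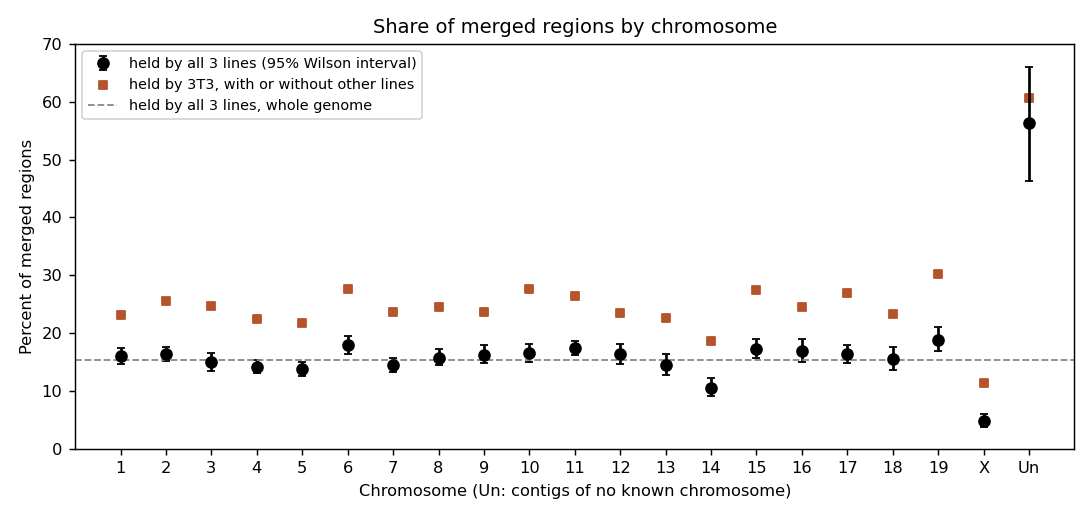
Percent of merged regions (y axis) held by all 3 lines (black points with 95% Wilson intervals) and held by 3T3 with or without the other lines (squares) on each autosome, the X chromosome and the contigs of no known chromosome (Un); the dashed line is the genome-wide 15.4%. Autosomes lie between 10.6% and 18.9%, the X chromosome is at 4.83% and the contigs at 56.4%.

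Locally, common regions were scattered. The median gap to the next common region was 67.4 kb, and 677 (9.61%) had another within 5 kb. With all merged regions as neighbours, 34.1% had one within 5 kb. This lay within the range of the other combinations of lines, from 29.6% for regions of 3T3 and E14 without P19 to 45.7% for regions of 3T3 and P19 without E14. Among 1-Mb windows with any common region the median held 2. The densest held 53 and lay on chromosome 6 between 114 and 115 Mb, where 59.6% of the 89 merged regions were common. They followed each other at a median of 2546 bp, with quartiles at 2406 and 3256 bp. Spacing was not even throughout, because they ran from 114232343 to 114988208, which leaves much wider gaps above the upper quartile. Their median percentiles were 57.2 in 3T3, 81.3 in P19 and 71.4 in E14. The next windows were neighbours on chromosome 10, between 79 and 80 Mb and between 80 and 81 Mb, with 44 common regions each among 204 and 188 merged regions (21.6% and 23.4%). Spacing there was wide and uneven, with medians of 15.5 and 13.6 kb. The densest windows together held 141 common regions, or 2.00% of all.

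The line between common and other regions was fine in places. Just inside it, the common regions whose best percentile was lowest lay on chromosome 7 (3331896 to 3332545) and chromosome 10 (30562460 to 30563296 and 51742153 to 51742750). Their mean percentiles over the 6 libraries were 16.8, 17.5 and 26.2. Just outside it, 98 regions had a peak in every library but missed the rule, because in at least 1 line the peaks of its libraries did not overlap. The strongest of these lay on the X chromosome (89086033 to 89089948), chromosome 11 (85645274 to 85647361) and chromosome 12 (45583715 to 45585456), with mean percentiles of 80.5, 76.1 and 75.9. The X region scored 3100 in the P19 and E14 libraries and 84.9 and 121 in 3T3.

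A further 4970 merged regions had a peak in exactly 5 of the 6 libraries. The absent peak was in 3T3 replicate 1 for 2792 of them (56.2%) and in 3T3 replicate 2 for 703 (14.1%). It was in P19 replicate 1 for 912 (18.4%), in P19 replicate 2 for 179 (3.60%), in E14 replicate 1 for 226 (4.55%) and in E14 replicate 2 for 158 (3.18%). The shortest list of each line was not always the one that lacked the peak, since E14 replicate 2 is the shorter E14 list. These regions were strong in P19, with median percentiles of 81.9 and 79.9, and in E14, with 78.1 and 72.7. They were weak in 3T3, with 44.4 and 35.4. Each median covers only the regions with a peak in that library, which were 2178 for 3T3 replicate 1. Without 3T3 replicate 1, common regions numbered 9858 and made up 20.6% of the merged regions. With peaks of either library of a line they numbered 13508, and with lists cut to 15462 peaks 2724, so the count of common regions rests on how many peaks each list holds.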

How the data were processed

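Dppa4 ChIP-seq peaks of 6 libraries, 2 each of 3T3, P19 and E14 cells, were analysed, and samples were grouped by the line and replicate number in their titles. Per the submitters' processing notes, the assembly was mm9 and the tools included BWA 0.7.13-r1126, SAMtools 1.3, bcl2fastq 1.8 and CASAVA 1.8. The authors deposited 1 peak list per library with 5 columns, the last a score per peak, and peak names begin with MACS. For the caller, the version, the threshold and the control were not given in the sources used here. Read depth is unknown. Matplotlib 3.10.9 drew the figures, and NumPy 2.4.6 and pandas 2.3.3 under Python 3.11.15 did the calculations, with SciPy 1.17.1 for rank correlations and Wilson intervals. The region code was tested on simulated data. A permutation of library pairings for midpoint distances was planned, but is not reported because the rule that forms the regions fixes part of its outcome.

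The regions, rules and comparisons were chosen with earlier results of these data known. Named regions are the 3 at each end of the ranked lists, without unplaced contigs. For differences between lines, the libraries of every line had to differ by under 20 percentile points. Coordinates are 1-based in mm9. The gene table at hand is of another assembly and no mm9 sequence was at hand, so genes, promoters, GC content and sequences were not analysed here. Scores were ranked within a list and not compared as amounts. Alternatives were a 50% overlap, the best-scoring 50% of each list, lists of equal length, peaks of either library, autosomes, leaving out each library, and a replicate block. Setting peaks to 500 bp, using regions with 1 peak in each library or under a score of 3100 in every library, and the hump between quartile groups were added after the data were seen.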

Additional observations from a re-analysis of the deposited data

How the results depend on the processing

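The spread between the replicate numbers came from regions formed among libraries of the same number. It was wide for some results, at 197 bp for the median core of 420 bp and 5.09 points for the share of 15.4%. Of 116 recomputed values, 87 moved by less than this spread, or by under 1.5 times for the count of common regions. That count was 2860 with the best-scoring 50% of each list, 2724 with lists of equal length and 13508 with peaks of either library, and 7203 to 9858 when a library was left out. The share of merged regions was 11.2% to 20.6% when a library was left out. The median core was 74.5 bp with peaks of either library and 399 to 551 bp without a library. With 1 peak in each library the midpoint distances were 71.25 bp (3T3 with P19), 73.875 bp (3T3 with E14) and 54.625 bp (P19 with E14), and that of P19 with E14 was 62.25 to 77.5 bp without a library. The share of common regions ranking higher in 3T3, 54.8%, was 65.4% with the best-scoring 50%, 36.4% with lists of equal length, 44.5% with peaks of either library, 52.2% with 1 peak in each library, 60.9% among regions under 3100 in every library, and 44.0% to 58.3% without a library. The 3T3 percentile in the highest P19 quartile group minus that in the third, -30.6 points, was -7.43 with the best-scoring 50%, -20.2 with lists of equal length, -40.0 with 1 peak in each library, -15.5 among regions under 3100 in every library, and -34.6 to -26.5 without a library. It was negative under every alternative. The replicate block, with regions formed among libraries of the same number, gave 10081.5 common regions on average, 48.2% ranking higher in 3T3 and a difference of -34.5 points. No label ties the same number in different lines to a shared origin, and the percentile differences between replicates correlated by 0.0273 to 0.0551 between lines. Peak width did differ by number, since peaks in common regions were wider in replicate 2 than in replicate 1 of every line. Lists of replicate 2 alone gave a median core of 672 bp and a share of 19.1%, and those of replicate 1 gave 393 bp and 11.9%. The shortened lists hold fewer peaks by construction; otherwise the cause of these moves was not tested.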
